A study of Mus musculus with 12 samples.

Results

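RNA-seq profiles of the extensor digitorum longus (EDL), a mostly glycolytic hind limb muscle, were compared between sedentary mice that the labels call Nrip1 knockout and wheel-trained mice that they call control. Each of these 2 groups held 3 libraries, 6 of the 12 libraries in the series. They were chosen by their labels. The knockout mice, named strNrip1-/- as in the study, carried floxed Nrip1 alleles and a Cre recombinase driven by the muscle creatine kinase promoter, which acts in heart and skeletal muscle, so that vessel, nerve and connective tissue cells of the muscle keep the gene. Controls, named WT, were littermates without Cre. All mice were male, and training was voluntary wheel running that began at 8 weeks of age. Per the study's methods, wheels were taken away before tissues were collected and mice that did not run were left out. The remaining groups, labelled WT sedentary and labelled strNrip1-/- trained with 3 libraries each, entered the fit and served as points of reference. The question was whether loss of Nrip1 without running reaches, exceeds or misses the expression profile of running with Nrip1 intact. Genotype and training both differ between the groups compared, and the comparison with labelled WT sedentary libraries gives each side on its own.

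Nrip1 encodes RIP140, a corepressor that is recruited by ligand-bound and orphan nuclear receptors, among them the estrogen-related and peroxisome proliferator-activated receptors, and that dampens genes of fatty acid oxidation and respiration. It is abundant in glycolytic fast-twitch muscle. Endurance running is known to raise mitochondrial content, fat use, capillary supply and the share of oxidative fibers in muscle, through coactivators and the same receptors.

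Library depth, estimated from the spacing of low values, ran from 20.2 M to 29.5 M fragments, so that 3 fragments on a transcript of 2 kb corresponded to 0.0621 to 0.0904 FPKM (fragments per kilobase of transcript, scaled to library size). Marker genes of skeletal muscle fibers were abundant in every library, and all 10 markers of that list were tested. Some libraries stood apart. Transcripts of slow fibers were high in labelled strNrip1-/- sedentary replicate 1, labelled WT trained replicate 2 and labelled WT sedentary replicate 2, where Myh7, the slow myosin heavy chain, reached 19.4, 50.0 and 24.8 FPKM against at most 5.74 in the other 9 libraries. Labelled WT trained replicate 2 also held the highest Fkbp5 level, 49.3 FPKM, with 9.54 and 15.9 in the other replicates of its group. Many counts below are also given without the 3 slow-fiber-high libraries. That leaves 2 libraries in each group that held 1 of them, so the contrast becomes 2 against 2. Fewer libraries can also lose calls, and the part of slow-fiber content in such losses was not tested.

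The gene targeted was looked at first. Nrip1 (ENSMUSG00000048490, chromosome 16, 76287400 to 76373827, minus strand, GRCm38) was at 15.5, 16.3 and 14.9 FPKM in labelled strNrip1-/- sedentary libraries and at 2.53, 4.76 and 3.56 FPKM in trained libraries labelled WT. All 3 knockout-labelled libraries were higher, and the groups did not overlap. The log2 difference was 2.0 (SE 0.198, limma adjusted p = 4.02e-04). This is opposite to what loss of the whole transcript would give, and directions by genotype are those of the labels. Per the study's methods Cre removes exon 4. The gene-level value also counts the remaining exons, and exon-level values were not analysed here, so this value cannot check the labels. Training moved Nrip1 little in labelled WT libraries, with a log2 difference of 0.09 from labelled WT sedentary.

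Across the 12744 genes that averaged 0.5 FPKM or more, 559 (4.39%) were called between labelled strNrip1-/- sedentary and labelled WT trained EDL at an adjusted p under 0.05 and a fold change above 1.2. Of these, 253 (1.99% of genes tested) were higher and 306 (2.40%) lower in labelled strNrip1-/- sedentary. Differences were small for the most part. The median size among called genes was 0.51 on the log2 scale, and 78 genes passed a 2-fold difference, 57 higher and 21 lower. The groups did not overlap in any of the 559, as in 2685 (21.1%) of all genes tested. An interval was also used to ask where the profiles met. For 8355 genes (65.6%) the 95% interval of the difference lay within 1.5-fold in either direction. These included 146 of the 559 called genes, so the 2 classes overlap and a gene within 1.5-fold can still differ. A further 3976 (31.2%) were neither called nor held within 1.5-fold, so these libraries did not place them. The split of directions followed the scaling: 45.3% of calls were higher here, 80.6% of 494 when libraries were rescaled by nuclear genes, and 27.0% of 466 when all libraries were rescaled to the same sum, which moved the median of all genes by 0.06 and −0.10. Leaving out the 3 slow-fiber-high libraries gave 131 calls, 111 of them shared, leaving out labelled WT trained replicate 3 gave 168, labelled strNrip1-/- sedentary replicate 1 gave 190, replicate 2 of that group 261, and a fit to the 6 compared libraries alone gave 38. Among called genes named here, Mylf-ps, Cebpb, Cox5a, Cox8a, Sdha, Atp5b, Idh2, Srebf1, Ldha, Phka1, Egln2, Il15, Tsc22d3, Trim63, Col1a2, Acta1, Ttn and Pdgfrb lost the call in 9 to 11 of the 12 fits that left out 1 library.

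**Figure D1:**
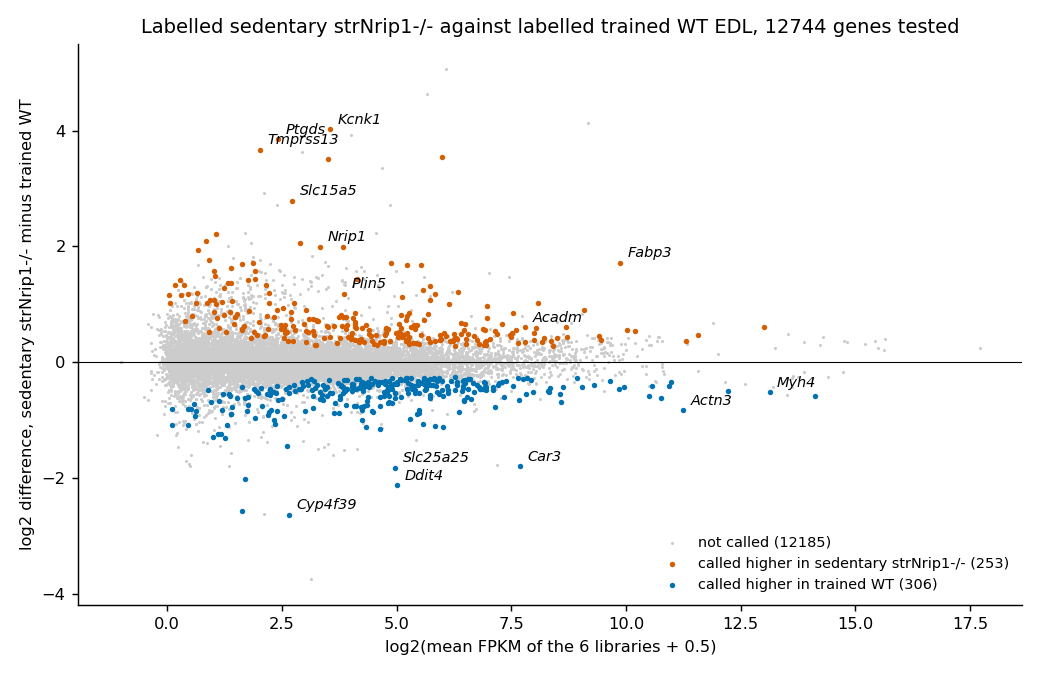
Log2 difference of labelled strNrip1-/- sedentary minus labelled WT trained EDL (y axis) against the log2 of the mean level of the 6 libraries in FPKM plus 0.5 (x axis), with 1 point for each of 12744 genes. Called genes are in color, 253 above 0 and 306 below, and the differences beyond 2-fold are more often above 0 (57) than below (21).

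The same fit gave each side against labelled WT sedentary libraries. Labelled strNrip1-/- sedentary differed from them in 447 genes (3.51%), 245 higher and 202 lower. Labelled WT trained differed from them in 0 genes (0.00%) by limma, while 1061 genes had an unadjusted p under 0.05 and the smallest adjusted p was 0.0593, for Rhob, a small GTPase. Without labelled WT trained replicate 1 that count was 30, the highest over the alternatives. Thus no gene could be said to have changed with running and then be asked whether the sedentary libraries labelled strNrip1-/- reached it. Rhob itself was called between labelled strNrip1-/- sedentary and labelled WT trained, at −0.49 (SE 0.0825, limma adjusted p = 0.0106). For Rhob both trained groups were above both sedentary groups in every library. The 2 comparisons with labelled WT sedentary share those libraries, and their values are therefore given side by side without a correlation.

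The groups outside the contrast show on which side each called gene lay. In 464 of the 559 called genes (83.0%) the mean of labelled WT sedentary libraries was nearer to labelled WT trained than to labelled strNrip1-/- sedentary, against 55.6% of all genes tested. The mean of labelled strNrip1-/- trained libraries was nearer to labelled strNrip1-/- sedentary in 467 (83.5%), against 57.6% of all genes. Both held in 414 genes (74.1%), against 31.6% of all genes. In 42 genes (7.51%), against 18.3% of all genes, the pattern was the other way, with labelled WT sedentary nearer to labelled strNrip1-/- sedentary and both trained groups on the other side. On a scale with labelled WT trained at 0 and labelled strNrip1-/- sedentary at 1, the median position was 0.140 for labelled WT sedentary and 0.883 for labelled strNrip1-/- trained. The genes were chosen for the distance between the end groups, so these positions are a description and were not tested.

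**Figure D2:**
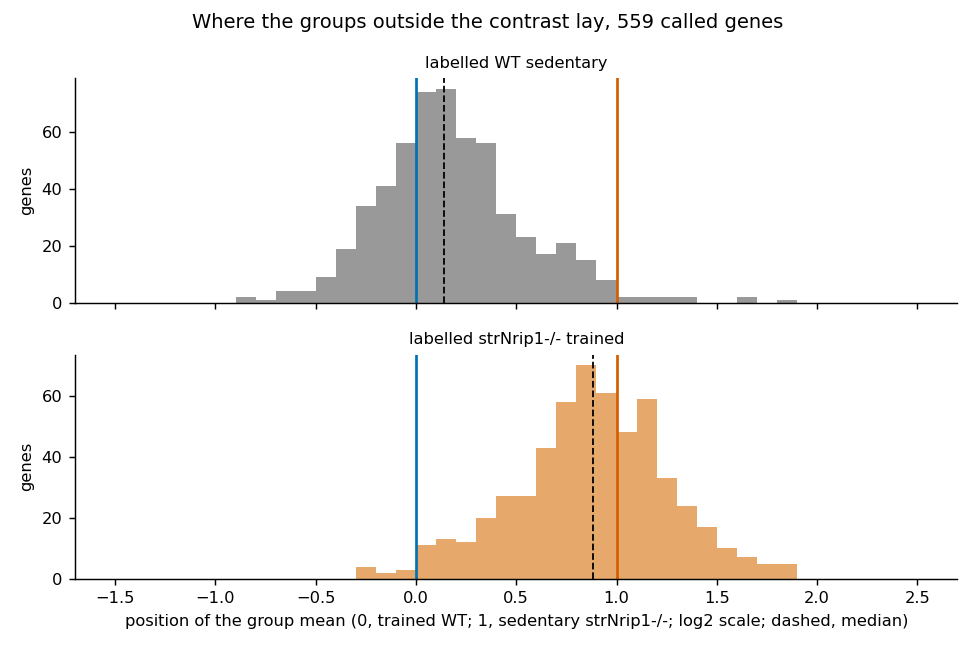
Number of called genes (y axis) by the position of the group mean on a log2 scale where labelled WT trained is 0 (blue line) and labelled strNrip1-/- sedentary is 1 (orange line), for labelled WT sedentary (top) and labelled strNrip1-/- trained (bottom). The dashed medians stand at 0.140 and 0.883.

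Of the 10 genes with the largest differences above 0, predicted genes left out, 7 stayed under 5 FPKM in every library of both labelled WT groups. Kcnk1 (ENSMUSG00000033998, chromosome 8, 125995170 to 126030685), a potassium channel of the two-pore family, was at 16.0, 27.5 and 21.4 FPKM in labelled strNrip1-/- sedentary against 1.15, 0.877 and 0.525 FPKM in labelled WT trained. Labelled WT sedentary libraries held 0.494 ± 0.0202 FPKM (SD, n = 3), and the trained knockout label gave 29.6 ± 7.76. The log2 difference was 4.03 (SE 0.227, adjusted p = 6.74e-06). Kcnk1 thus stayed at the low end in both labelled WT groups, with a log2 difference of 0.41 between them against 4.44 for the knockout label. Each labelled WT trained library was above the labelled WT sedentary libraries, which ran from 0.474 to 0.514 FPKM. The 0.5 FPKM added before the log compresses differences at this level, so the 0.41 is an understatement.

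Ptgds, which makes prostaglandin D2, was at 6.35, 12.8 and 9.57 FPKM against 0.270, 0.110 and 0.153, a log2 difference of 3.85 (SE 0.273, adjusted p = 4.83e-05). Tmprss13, a membrane serine protease gene, had the smallest adjusted p of all genes, 5.94e-08, with 6.52, 7.06 and 7.48 FPKM against 0.107, 0.106 and 0.0588. The low values of both genes lay near the worth of 3 fragments, so their differences depend on the pseudocount, and over the alternatives that of Tmprss13 ran from 2.88 to 5.23. Slc15a5, a predicted peptide transporter gene, differed by 2.79 (SE 0.306). The 7 also held Cabcoco1 at 2.21, the presynaptic priming gene Unc13c at 2.10 and Nrip1 itself. Between the labelled WT groups these genes had log2 differences from −0.19 to 0.41. Ptgds, Tmprss13, Cabcoco1 and Unc13c averaged under 0.5 FPKM in both labelled WT groups and passed the filter only through the knockout-labelled groups. The pseudocount of 0.5 compresses differences at such levels, so they cannot show whether running moved these genes. Over the alternatives the difference of Cabcoco1 ran from 1.656 to 3.179 and that of Unc13c from 1.525 to 3.195.

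The 3 other genes among the 10 highest differed in where the sedentary controls lay. Mup22 and Mup17, major urinary protein genes of the liver, and Cyp3a11, a hepatic cytochrome P450, had log2 differences of 3.55 (SE 0.880), 3.51 (SE 0.855) and 2.07 (SE 0.493). Mup22 was at 56.5, 70.4 and 201 FPKM in labelled strNrip1-/- sedentary and at 4.63, 1.66 and 45.8 FPKM in trained libraries labelled WT, with 53.1, 49.3 and 95.1 in labelled WT sedentary. The Mup genes are near-identical copies, so the share of each is uncertain. A list of 12 liver transcripts, chosen after these values were seen and holding Cyp3a11 itself, moved with them. Its summed level was 566, 670 and 993 FPKM in labelled strNrip1-/- sedentary, 582, 142 and 229 in labelled WT trained, 522 to 934 in labelled WT sedentary and 230 to 397 FPKM in labelled strNrip1-/- trained libraries. All 12 were higher in labelled strNrip1-/- sedentary and 2 were called, Cyp3a11 and Rbp4, the plasma retinol carrier. Outside the list, Mup21 was called higher at 1.42 (limma adjusted p = 0.0268). Trf was called higher at 1.18 (limma adjusted p = 0.045) and Apoe at 1.02 (limma adjusted p = 0.031). Apom and Crp were also called higher. In each of these genes, picked after their values were seen, labelled WT sedentary lay nearer to labelled strNrip1-/- sedentary than to labelled WT trained. The part of such transcripts in these calls was not tested. The calls of Mup22, Mup17 and Cyp3a11 were lost in 11, 11 and 10 of the 12 fits that left out 1 library in turn.

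At the other end, Cyp4f39 (ENSMUSG00000061126, chromosome 17, 32452723 to 32493320), a fatty acid hydroxylase of the cytochrome P450 family, was at 0.946, 1.14 and 1.58 FPKM in labelled strNrip1-/- sedentary and at 13.3, 7.0 and 11 FPKM in trained libraries labelled WT. The log2 difference was −2.64 (SE 0.224, adjusted p = 1.59e-04). Slc2a3, which encodes the glucose transporter GLUT3, was at 1.29, 0.351 and 0.822 FPKM against 4.86, 4.92 and 4.13, a log2 difference of −2.02 (SE 0.325, adjusted p = 0.00839). Car3, the carbonic anhydrase of muscle and fat, was at 119, 50.8 and 106 FPKM against 355, 185 and 418, a difference of −1.80. The synaptotagmin gene Syt3 at −1.24 and the myosin light chain pseudogene Mylf-ps at −1.30 completed the genes in which labelled WT sedentary lay with the trained controls. Mylf-ps shares sequence with its parent gene and is uncertain.

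In the 5 others of the 10 lowest, sedentary controls lay with labelled strNrip1-/- sedentary or between. Ddit4 (ENSMUSG00000020108, chromosome 10, 59949669 to 59951834), the stress-induced inhibitor of mTORC1, was at 8.92, 8.53 and 15.7 FPKM in labelled strNrip1-/- sedentary, 25.3, 66.0 and 66.1 in labelled WT trained, 11.7, 9.34 and 10.1 in labelled WT sedentary and 35.9, 28.3 and 23.1 FPKM in labelled strNrip1-/- trained libraries. Both trained groups were above both sedentary groups in every library. The log2 difference was −2.13 (SE 0.344, adjusted p = 0.00866), beside 0.04 between the sedentary groups. Slc25a25, a calcium-regulated ATP-Mg/phosphate carrier of mitochondria, was at 10.5, 13.4 and 16.4 FPKM against 51.5, 42.9 and 50.4 in labelled WT trained, a difference of −1.82 (SE 0.384), but labelled strNrip1-/- trained libraries were spread from 8.65 to 30.7 FPKM. Cebpd and Cebpb, C/EBP transcription factors of the acute stress response, differed by −1.44 (SE 0.264) and −1.16 (SE 0.277), and the lysine methyltransferase gene Mettl21e by −1.25 (SE 0.274). Labelled WT trained against labelled WT sedentary gave 2.16 for Ddit4, 1.53 for Slc25a25, 1.73 for Cebpd, 1.09 for Mettl21e and 0.70 for Cebpb, with no adjusted p under 0.05. Without labelled WT trained replicate 3 the adjusted p of the last 4 genes rose to between 0.0644 and 0.148, and without the 3 slow-fiber-high libraries all 5 calls were lost, at 0.107 to 0.234.

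**Figure D3:**
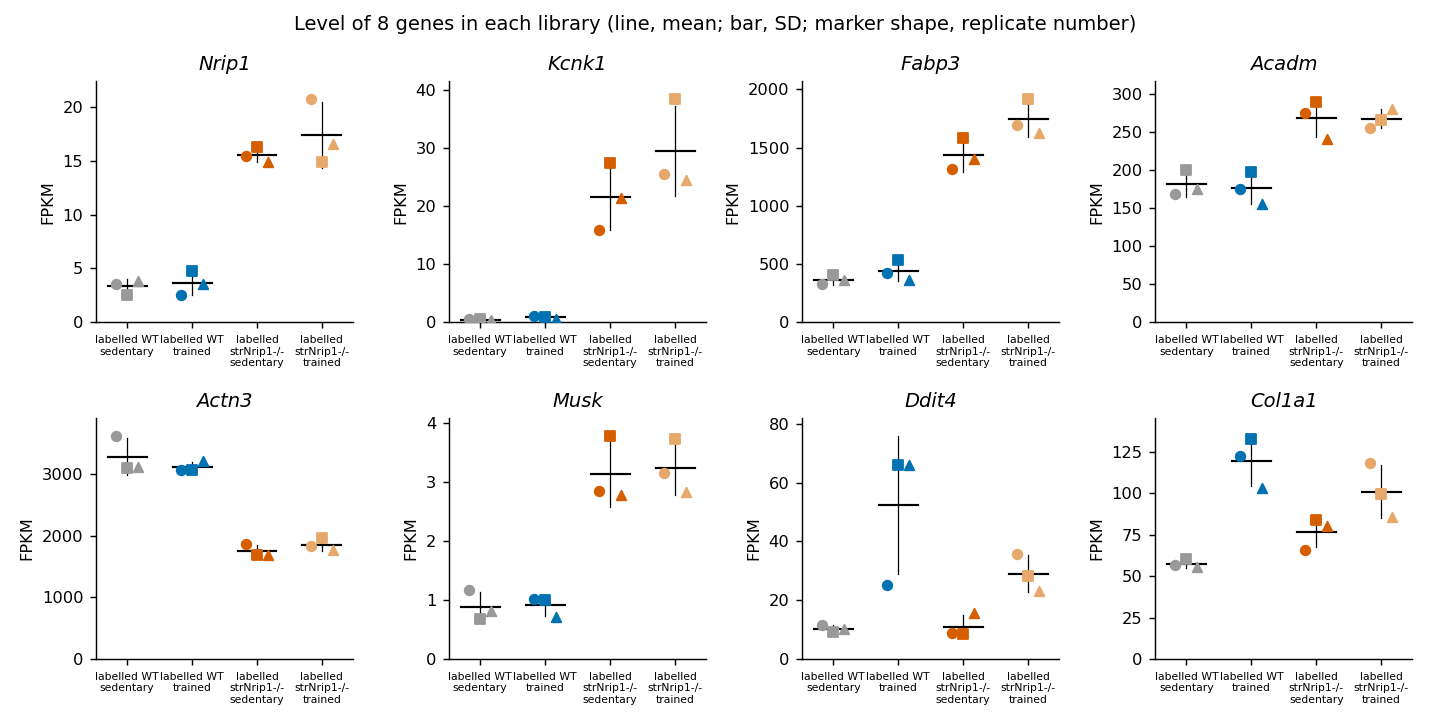
Level in FPKM (y axis, from 0) of 8 genes in each of the 12 libraries by labelled group (x axis), with the group mean as a line and the SD as a bar. Nrip1, Kcnk1, Fabp3, Acadm, Actn3 and Musk separate by genotype label, while Ddit4 and Col1a1 are lower in both sedentary groups than in labelled WT trained.

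Among lists of mitochondrial energy production, calls ran from 0 of 36 complex I subunits to 10 of 23 fatty acid oxidation genes, and each call was higher in labelled strNrip1-/- sedentary. Fatty acid oxidation had the highest share called, with 10 higher and 0 lower and a median log2 difference of 0.36, where 4.39% of all genes tested were called and their median was near 0. That 4.39%, made up of 1.99% higher and 2.40% lower, is the share to set beside each list count below. Acadm, the medium-chain acyl-CoA dehydrogenase, was at 275, 290 and 241 FPKM in labelled strNrip1-/- sedentary and at 175, 199 and 156 FPKM in trained libraries labelled WT. No library overlapped, and the difference was 0.61 (SE 0.103, adjusted p = 0.0106). Etfa, which passes electrons from the dehydrogenases to the respiratory chain, differed by 0.58 (SE 0.105), the thiolase gene Acaa2 by 0.53 (SE 0.0976) and the carnitine-acylcarnitine carrier Slc25a20 by 0.51 (SE 0.103). Cpt1b, the gate of mitochondrial fat entry in muscle, was not called at 0.04. The list's median was 0.48 for labelled strNrip1-/- sedentary and 0.11 for labelled WT trained, each against labelled WT sedentary. The count was 5 without the 3 slow-fiber-high libraries, 3 without labelled WT trained replicate 3 or without labelled strNrip1-/- sedentary replicate 1, and 0 with the 6 libraries alone.

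For respiratory chain subunits the direction was uniform and the calls were few. Of 40 nuclear-encoded subunits of complexes II to V, all 40 had positive differences, 7 were called and the median was 0.38. Cox5a, a subunit of cytochrome c oxidase, was at 1310, 1631 and 1215 FPKM against 923, 1103 and 844, a difference of 0.53 (SE 0.123, adjusted p = 0.0371). Atp5a1, the ATP synthase alpha subunit, differed by 0.45 (SE 0.0825), Cox8a by 0.40 (SE 0.10) and the complex II flavoprotein gene Sdha by 0.39 (SE 0.0898). All 36 complex I subunits had positive differences with a median of 0.27, and 0 were called, where Ndufa8 stood highest at 0.45 (SE 0.164, adjusted p = 0.156) and Ndufs4 next at 0.44 (adjusted p = 0.0684). Running alone gave medians of −0.05 and −0.04 for these 2 lists over labelled WT sedentary, and the knockout label 0.29 and 0.22. The calls moved with scaling: with rescaling by nuclear genes 29 of the 40 and 18 of the 36 were called, and with the same sum 7 and 1. Without labelled WT trained replicate 3, or without labelled strNrip1-/- sedentary replicate 1, none of either list was called. The count of 7 became 1 without the 3 slow-fiber-high libraries, 1 without labelled strNrip1-/- sedentary replicate 2 or labelled WT trained replicate 1, and 13 without labelled strNrip1-/- sedentary replicate 3.

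The mitochondrial genome encodes 13 subunits of the same complexes. All 13 were higher in labelled strNrip1-/- sedentary, with a median of 0.35, and 0 were called, while 9 were called with rescaling by nuclear genes and 7 with array weights. mt-Nd6 had the smallest adjusted p, 0.0674, at a difference of 0.35, and mt-Nd3 and mt-Nd2 had the largest differences named, 0.49 (SE 0.264) and 0.43 (SE 0.140). As a share of summed FPKM, mitochondrial-genome transcripts held 52.8%, 51.2% and 52.8% in labelled strNrip1-/- sedentary and 47.3%, 46.8% and 43.8% in labelled WT trained libraries. The difference of 6.32 percentage points had an exact two-sided permutation p of 0.1, the smallest that 3 against 3 libraries allow. The share was 43.7% ± 1.35 in labelled WT sedentary and 45.0% ± 1.12 with the trained knockout label (SD, n = 3 each), which lay with the controls here.

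In the citric acid cycle 5 of 19 genes were called higher and 0 lower, with a median of 0.28. The count was 13 with rescaling by nuclear genes, 1 with the same sum, 1 without the 3 slow-fiber-high libraries and 0 with the 6 libraries alone. Over the 6 libraries compared, left out in turn, it ran from 1 without labelled WT trained replicate 3, and 2 without labelled WT trained replicate 1 or labelled strNrip1-/- sedentary replicate 1 or 2, to 9 without labelled strNrip1-/- sedentary replicate 3 and 10 without labelled WT trained replicate 2. Suclg2, a subunit of succinyl-CoA ligase, was at 44.1, 40.7 and 39.1 FPKM against 29.4, 31.8 and 28.2, a difference of 0.47 (SE 0.0689, adjusted p = 0.00519). Idh2 differed by 0.55 (SE 0.138), the fumarase gene Fh1 by 0.37 (SE 0.0793) and Ogdh, of the oxoglutarate dehydrogenase complex, by 0.36 (SE 0.0613). Antioxidant enzymes had 3 of 22 called higher and 0 lower, where 1.99% of all genes tested were called higher. These were catalase (Cat) at 0.65 (SE 0.139), Gpx1 at 0.47 (SE 0.0937) and Prdx6 at 0.36 (SE 0.0807). The count was 1 without the 3 slow-fiber-high libraries. None of the 22 was called after rescaling to the same sum or without labelled WT trained replicate 3.

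**Figure D4:**
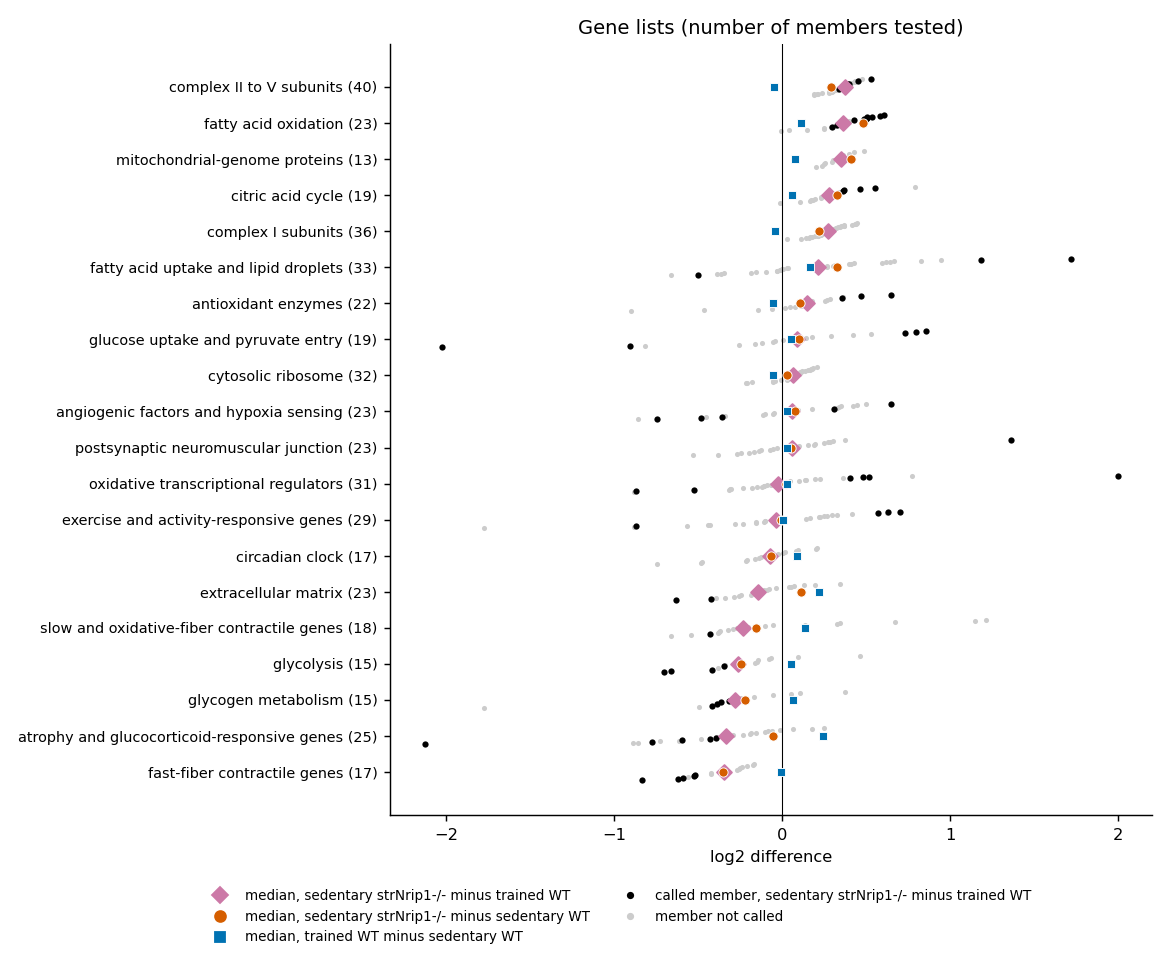
Log2 differences (x axis) of the members of 20 gene lists (y axis, number tested in brackets), with called members in black. Diamonds give each list's median for labelled strNrip1-/- sedentary minus labelled WT trained, and the circles and squares give the medians of each of these groups minus labelled WT sedentary. Mitochondrial lists lie above 0 and fast-fiber, glycogen and glycolysis lists below, and the medians of trained controls in these lists lie between −0.048 and 0.113.

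Lipid handling turned on a few genes. Fabp3, the fatty acid carrier protein of heart and oxidative muscle, was at 1312, 1586 and 1400 FPKM in labelled strNrip1-/- sedentary and at 423, 532 and 362 FPKM in trained libraries labelled WT. Fabp3 averaged 366 ± 42.1 FPKM in labelled WT sedentary and 1745 ± 152 FPKM in the trained knockout label (SD, n = 3 each). The log2 difference was 1.72 (SE 0.139, adjusted p = 1.35e-04), beside 0.25 for running alone. Plin5, which ties lipid droplets to mitochondria, was at 16.5, 22.3 and 19.7 FPKM against 7.06, 11.5 and 6.89, a difference of 1.19 (SE 0.254, adjusted p = 0.0289). Srebf1, a regulator of lipid synthesis, was lower by −0.50 (SE 0.123). These were the 3 calls among 33 genes of fatty acid uptake and lipid droplets. The median of that list was 0.21, and it was −0.028 without labelled strNrip1-/- sedentary replicate 3. Some of its genes mark adipocytes as well, whose 8 tested markers included 0 calls and summed to 254 to 380 FPKM in labelled strNrip1-/- sedentary and 222 to 264 in labelled WT trained libraries. The part of fat cells was not tested.

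The promoters of 4 of these genes are shown because Fabp3 had the largest difference in the lipid list, Acadm led fatty acid oxidation, Perm1 is a muscle regulator of respiration that was called higher at 0.41 (SE 0.0986), and Sdhd, a complex II subunit called at 0.38 (SE 0.0852) and picked after its sequence was seen, was the only gene called higher that held the longer site. The sequences are from RefSeq on GRCm38.p6 and run from 250 bases before the transcription start to 50 after, 5′ to 3′ on the strand of the gene. Capitals mark AGGTCA, the core site of many nuclear receptors, or its reverse complement TGACCT.
Fabp3 (chr4:130308488-130308787, plus strand): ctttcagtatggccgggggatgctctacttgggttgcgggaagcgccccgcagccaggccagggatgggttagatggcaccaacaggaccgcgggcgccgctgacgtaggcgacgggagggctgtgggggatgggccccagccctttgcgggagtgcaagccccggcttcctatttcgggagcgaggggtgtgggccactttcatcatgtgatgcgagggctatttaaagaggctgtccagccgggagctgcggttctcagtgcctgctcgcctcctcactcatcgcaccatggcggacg
Acadm (chr3:153944594-153944893, minus strand): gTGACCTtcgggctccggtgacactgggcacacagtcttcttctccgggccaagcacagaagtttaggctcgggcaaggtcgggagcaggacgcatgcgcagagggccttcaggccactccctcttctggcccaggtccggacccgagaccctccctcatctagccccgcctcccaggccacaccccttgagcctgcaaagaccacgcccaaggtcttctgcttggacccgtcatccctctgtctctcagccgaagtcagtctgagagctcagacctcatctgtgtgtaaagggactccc
Perm1 (chr4:156215677-156215976, plus strand): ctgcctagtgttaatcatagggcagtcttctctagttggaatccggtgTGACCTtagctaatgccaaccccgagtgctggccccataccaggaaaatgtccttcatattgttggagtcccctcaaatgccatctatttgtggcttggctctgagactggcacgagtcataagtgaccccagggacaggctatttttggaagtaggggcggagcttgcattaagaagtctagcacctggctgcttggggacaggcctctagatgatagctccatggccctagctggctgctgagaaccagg
Sdhd (chr9:50603800-50604099, minus strand): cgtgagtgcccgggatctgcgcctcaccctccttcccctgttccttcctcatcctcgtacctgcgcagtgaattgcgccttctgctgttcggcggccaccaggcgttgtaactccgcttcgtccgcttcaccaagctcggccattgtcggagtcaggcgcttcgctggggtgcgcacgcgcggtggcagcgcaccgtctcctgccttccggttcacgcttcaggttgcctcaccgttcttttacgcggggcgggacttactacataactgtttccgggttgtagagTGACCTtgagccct

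The Fabp3 window held no such site. Over the genes with a promoter sequence, AGGTCA on either strand was present in 42 of 200 genes called higher (21.0%), in 33 of 241 called lower (13.7%) and in 1485 of 9627 genes tested (15.4%). The longer site TCAAGGTCA, preferred by estrogen-related receptors and containing the shorter one, was present in 1 of 200 (0.50%), 0 of 241 and 32 of 9627 (0.33%). Several genes have more than 1 promoter in the table and were counted when any held the site. A match describes the letters in the window and was not tested.

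Of 17 genes of fast glycolytic fibers 5 were called, each lower in labelled strNrip1-/- sedentary. All 17 differences were negative, with a median of −0.34. Actn3, the Z-disc actinin of fast fibers, was at 1864, 1696 and 1697 FPKM in labelled strNrip1-/- sedentary and at 3063, 3076 and 3212 FPKM in trained libraries labelled WT, with 3286 ± 297 FPKM (SD, n = 3) in labelled WT sedentary. The difference was −0.83 (SE 0.0836, adjusted p = 4.23e-04). Casq1, the calcium buffer of the sarcoplasmic reticulum, differed by −0.62 (SE 0.108), the fast myosin-binding protein gene Mybpc2 by −0.59 (SE 0.0792) and the myosin light chain kinase gene Mylk2 by −0.52 (SE 0.10). Myh4, the type 2B myosin heavy chain, was at 7236, 6582 and 8385 FPKM against 10749, 10101 and 10783, a difference of −0.52 (SE 0.127, adjusted p = 0.0442). The call of Myh4 did not survive 11 of the 12 fits that left out 1 library, nor hold with the replicate block, with rescaling by nuclear genes or without the 3 slow-fiber-high libraries. Running alone gave a median of −0.01 for this list and the knockout label −0.35, each over labelled WT sedentary. The count was 3 without the 3 slow-fiber-high libraries, 7 with rescaling by nuclear genes and 14 with the same sum, and all were lower.

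Slow-fiber genes did not mirror this. Of 18 slow and oxidative-fiber genes, 1 was called, Mybpc1, and it was lower, at −0.43 (SE 0.0868). Differences ran from −0.66 to 1.21, with 6 above 0 and 12 below. The summed level was 5445 to 7374 FPKM in labelled strNrip1-/- sedentary and 4320 to 6106 in labelled WT trained libraries. With array weights, a filter of 5 FPKM, quantile normalization or either rescaling, 2 members were called higher. The same count held without labelled strNrip1-/- sedentary replicate 3. The list's median of −0.23 became 0.43 without labelled WT trained replicate 2, the library with the most Myh7, so it had no stable direction. Myh2, the type 2A myosin, had a difference of −0.05 (SE 0.132). Beyond the fast-fiber list, the general fiber markers Acta1, the skeletal actin, and the giant sarcomere protein gene Ttn were lower by −0.58 (SE 0.128) and −0.35 (SE 0.0867).

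Most carbohydrate genes of 2 lists went with the fast fibers. In glycogen metabolism 5 of 15 were called lower and 0 higher, with a median of −0.28. Pygm, the muscle glycogen phosphorylase, was at 1316, 1315 and 1237 FPKM against 1670, 1822 and 1674, a difference of −0.42 (SE 0.0732, adjusted p = 0.0124). The phosphorylase kinase subunit Phka1 differed by −0.39 (SE 0.0950) and Pgm1, phosphoglucomutase, by −0.31 (SE 0.0531). In a glycolysis list that also holds linked genes, 4 of 15 were called lower and 0 higher, with a median of −0.26. Of those called, only Ldha and Pkm encode enzymes of the path from glucose to lactate. Outside the list, the enolase gene Eno1 was called higher at 0.56 and the hexokinase gene Hk1 at 0.80. Fbp2, the muscle fructose bisphosphatase, differed by −0.70 (SE 0.142), the lactate exporter Slc16a3 by −0.66 (SE 0.139), Ldha by −0.42 (SE 0.104) and Pkm by −0.34 (SE 0.0754). The trained controls had medians of 0.07 and 0.05 for the 2 lists over labelled WT sedentary. Rescaling by nuclear genes left 1 lower call in glycogen metabolism and 7 in glycolysis, leaving out labelled WT trained replicate 3 left 2 and 0, and leaving out the 3 slow-fiber-high libraries left 0 in each.

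Genes of glucose uptake and pyruvate entry moved both ways, with 3 of 19 called higher and 2 lower, against 2 and 0 without the 3 slow-fiber-high libraries. Ldhb, the lactate dehydrogenase form of oxidative tissues, was at 251, 264 and 199 FPKM against 117, 167 and 113, a difference of 0.86 (SE 0.177). Hk1, a hexokinase, was higher by 0.80 (SE 0.121, adjusted p = 0.00603). The insulin receptor substrate gene Irs1 was lower by −0.90 (SE 0.211), beside Slc2a3 described above.

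Among 31 transcriptional regulators of oxidative metabolism, 4 were called higher and 2 lower, against 2 and 0 without the 3 slow-fiber-high libraries. Besides Nrip1 and Perm1, the estrogen-related receptor genes Esrrb and Esrra were higher by 0.52 (SE 0.120) and 0.48 (SE 0.0687). The third receptor of that family had a negative difference. Esrrg was at 3.89, 3.19 and 3.82 FPKM in labelled strNrip1-/- sedentary and at 5.68, 5.87 and 4.78 FPKM in trained libraries labelled WT, a difference of −0.52 (SE 0.128, adjusted p = 0.0442). Its labelled WT sedentary level, 3.60, 2.91 and 3.12 FPKM, lay with labelled strNrip1-/- sedentary. The calls of Esrrg and Esrrb were each lost in 11 of the 12 fits that left out 1 library, and without the 3 slow-fiber-high libraries. Nr4a1, an orphan receptor induced by muscle activity, was at 50.9, 55.9 and 66.0 FPKM against 109, 106 and 100, a difference of −0.87 (SE 0.149, adjusted p = 0.0111). On the scale with labelled WT trained at 0 and labelled strNrip1-/- sedentary at 1, its labelled WT sedentary mean lay at 0.24. Sedentary controls were thus nearer to the trained controls for Nr4a1, and labelled strNrip1-/- trained lay at 0.53. Ppargc1a, the coactivator PGC-1α, was not called, at −0.31 (SE 0.125).

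Of 29 activity-responsive genes tested, 3 were called higher and 1 lower, against 1 and 0 without the 3 slow-fiber-high libraries. The lower call was Nr4a1, which the regulator list above also holds. Of all genes tested 4.39% were called. Il15, a myokine, was higher by 0.70 (SE 0.164) and Fndc5, the irisin precursor, by 0.57 (SE 0.0778, adjusted p = 0.00354). Fndc5 was at 33.5, 32.1 and 33.6 FPKM against 22.8, 23.7 and 20.1, and labelled WT sedentary libraries were lower still, at 16.7, 19.1 and 18.5 FPKM. Junb, an immediate early gene, was higher by 0.63 (SE 0.123).

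Of 23 genes of the postsynaptic neuromuscular junction 1 was called, a share near the 4.39% of all genes tested. Musk, the kinase that clusters acetylcholine receptors, was at 2.85, 3.79 and 2.78 FPKM in labelled strNrip1-/- sedentary and at 1.02, 1.01 and 0.709 FPKM in trained libraries labelled WT. The groups did not overlap, and the difference was 1.36 (SE 0.172, adjusted p = 0.00227), beside 0.03 for running alone. Musk was that call, and it held without the 3 slow-fiber-high libraries, while the median of its list was 0.06. Of the 8 junction genes that the study names, which it picked on these libraries and which are no independent evidence of direction, 6 were tested and 4 called higher, against 2 without the 3 slow-fiber-high libraries. Unc13c is described above, the nicotinic receptor subunit Chrna4 differed by 1.48 (SE 0.197) and the secreted ligand Wnt16 by 1.28 (SE 0.213). Pde4a and Zmynd8 were not called, at 0.38 (SE 0.111) and 0.12 (SE 0.0916). Chrna2, a nicotinic receptor subunit gene, was below the level tested.

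Among 23 angiogenic and hypoxia-sensing genes 2 were called higher and 3 lower, where 1.99% and 2.40% of all genes tested were. Fgfbp1, which frees fibroblast growth factors from the matrix, was at 8.14, 5.97 and 6.14 FPKM against 4.23, 4.51 and 3.57, a difference of 0.65 (SE 0.131). The oxygen sensor Egln1 was higher by 0.31 (SE 0.0595), and its relative Egln2 was lower by −0.36 (SE 0.0876). Nos1, the neuronal nitric oxide synthase of the fiber membrane, was lower by −0.74 (SE 0.159) and Fgf2 by −0.48 (SE 0.104). Of the study's 7 angiogenesis genes, also picked on these libraries, 4 were called higher: Plk2 at 0.75 (SE 0.130), Fgfbp1, Atp5b at 0.37 (SE 0.0919) and Egln1. Vegfa, Tie1 and Epas1 were not called, at 0.42 (SE 0.125, adjusted p = 0.0852), 0.21 (SE 0.0812) and 0.10 (SE 0.111), and Epas1 became −0.015 after rescaling to the same sum. Without labelled WT trained replicate 3, labelled strNrip1-/- sedentary replicate 1 or the 3 slow-fiber-high libraries, 0 genes of either list were called. Endothelial markers summed to 215 to 245 FPKM in labelled strNrip1-/- sedentary and to 183 to 203 in labelled WT trained libraries, with 0 of 14 called. In whole muscle, more cells of a type and more RNA per cell cannot be told apart.

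Of 25 atrophy and glucocorticoid-responsive genes, 5 were called lower in labelled strNrip1-/- sedentary and 0 higher. The median was −0.34, beside a median of −0.05 between the sedentary groups. Besides Ddit4, Tsc22d3, the glucocorticoid-induced leucine zipper, was at 96.4, 100 and 112 FPKM against 141, 188 and 205, a difference of −0.77 (SE 0.180). The ubiquitin ligase gene Trim63 (MuRF1) differed by −0.59 (SE 0.145) and the mitophagy receptor gene Bnip3 by −0.43 (SE 0.0933). Klf9, a glucocorticoid target, differed by −0.39 (SE 0.0860). Against labelled WT sedentary, Trim63 and Bnip3 had differences of −0.42 and −0.40. Fkbp5, high in labelled WT trained replicate 2, moved with this list but was not called (adjusted p = 0.368). The count was 0 without the 3 slow-fiber-high libraries, and 1 without labelled WT trained replicate 3 or without labelled strNrip1-/- sedentary replicate 1. None of the 17 clock genes was called, and Per1 and Nfil3 had differences of −0.48 (SE 0.136) and −0.74 (SE 0.263).

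Of 23 extracellular matrix genes 2 were called, both fibrillar collagens and both lower, where 4.39% of all genes tested were called. So small a count gives no result for the list. Col1a1 was at 66.1, 84.0 and 80.6 FPKM in labelled strNrip1-/- sedentary, 123, 133 and 103 in labelled WT trained, 57.0, 60.4 and 55.7 in labelled WT sedentary and 118, 99.3 and 85.8 FPKM in labelled strNrip1-/- trained libraries. Each trained library was above each sedentary one, and the difference was −0.63 (SE 0.131, adjusted p = 0.0247). Col1a2 differed by −0.42 (SE 0.107). The median of the list was −0.14. Fibroblast markers other than Col1a1 were not called (0 of 9) and summed with it to 477 to 572 FPKM against 499 to 581. The calls were lost without the 3 slow-fiber-high libraries.

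Housekeeping and non-muscle genes gave few differences. Of 32 cytosolic ribosomal genes 0 were called and 28 had intervals within 1.5-fold, and the largest differences were −0.22 for Rps27 and −0.21 for Rpl10. Markers of macrophages, Schwann cells, adipocytes, tendon and satellite cells had 0 calls. Their members with the largest differences included the macrophage receptors Cd163 (−0.28) and Adgre1 (−0.25), the fat cell genes Pck1 (1.26, adjusted p = 0.10) and Cidec (0.83), the glial gene S100b (0.45) and the satellite cell cadherin Cdh15 (−0.35). Endothelial Vwf and Emcn had differences of 0.50 and 0.46, uncalled at adjusted p = 0.170 and 0.0635. Blood markers, led by the hemoglobin genes Hba-a1 (0.80) and Hbb-bt (0.77), had a median difference of 0.70 with 0 of 5 called, and summed to 851 to 1834 FPKM in labelled strNrip1-/- sedentary against 723 to 863. Among 9 pericyte and smooth muscle markers, Pdgfrb was called higher at 0.35 (SE 0.0816) and Abcc9 lower at −0.38 (SE 0.0822), where 4.39% of all genes tested were called. Of 4 tested genes that separate the C57BL/6J and C57BL/6N substrains, listed because the floxed and Cre lines had different backgrounds, Entpd4 was higher at 0.40 (SE 0.0663) and also against labelled WT sedentary, at 0.45. The part of strain background was not tested.

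**Figure D5:**
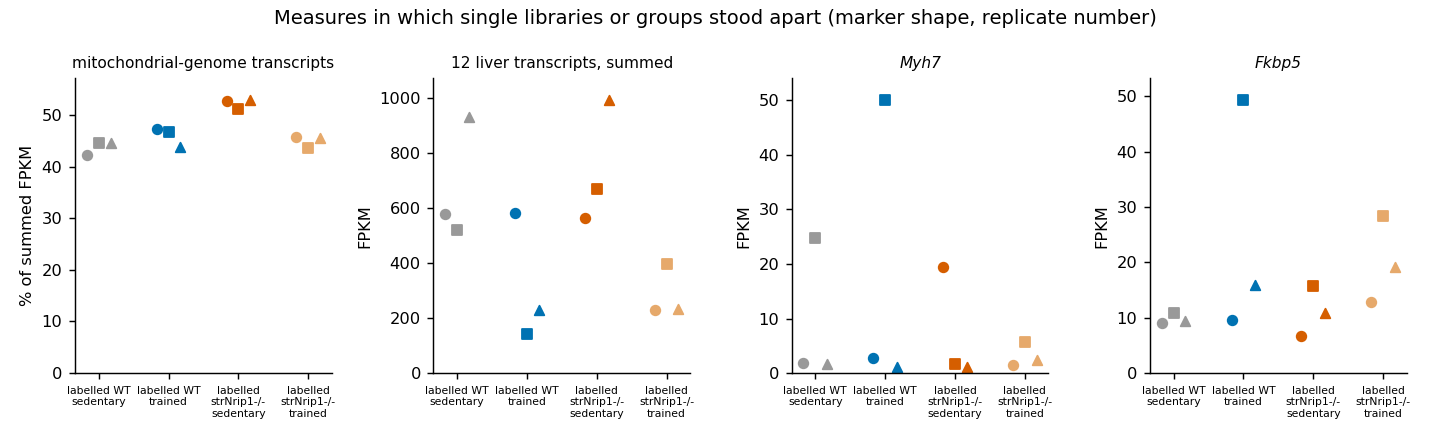
Values in each of the 12 libraries by labelled group (x axis), from left to right the share of summed FPKM held by mitochondrial-genome transcripts (%), the summed FPKM of 12 liver transcripts, and the FPKM of Myh7 and Fkbp5. The mitochondrial share is highest in the 3 labelled strNrip1-/- sedentary libraries, liver transcripts are low in labelled WT trained replicates 2 and 3, and Myh7 and Fkbp5 peak in labelled WT trained replicate 2.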

How the data were processed

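EDL RNA was sequenced by the authors from libraries that do not keep strand, quantified with Salmon 1.10.2 against mm10, summed to genes with tximport and tested with DESeq2 1.44.0. The authors deposited FPKM per gene and library for 17752 genes. They also deposited log2 fold changes and adjusted p-values of their own comparisons, which were not used. The annotation release is not given in the sources used here. Identifiers were matched to GENCODE M21 (17745 matched). Values were taken as log2(FPKM + 0.5), which understates changes of low genes, and the 12744 genes averaging 0.5 FPKM or more over 12 libraries were fitted with limma 3.58.1 in R 4.3.3, as 4 group means with a mean-dependent variance prior. Two-sided p-values were adjusted by Benjamini-Hochberg. Count models were not applied to FPKM. Depth was inferred from FPKM spacing in 1619 genes with 1 transcript, where 99.1% to 99.6% of low values fell within 0.15 of a whole fragment, and it covers counting error only. Labels do not say how animals relate to libraries, so p-values measure the spread between these samples. The fit was tested on simulated data.

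The groups compared, gene lists and tests were chosen with earlier results of these data known. Genes named were Nrip1, the 10 highest and 10 lowest called genes without overlap (predicted genes left out), up to 4 called members of each list (or the 2 with the largest difference) and the study's own lists, of which some members are not reported here. Perm1, Esrra, Sdhd, Klf9, mt-Nd6, Cpt1b, Myh2, Myh7, Ppargc1a, Rhob, Rbp4, Fkbp5, Eno1, Mup21, Apom, Crp, Trf and Apoe were added after their values were seen. A symbol shared by 2 identifiers (33 genes, Aldoa among them) was left out of lists. Slc25a25, Cebpd, Cebpb, Mettl21e, Syt3, Fabp3, Fh1, Atp5a1, Srebf1, Pgm1, Irs1, Fgf2, Egln2, Acta1, Bnip3, Junb and Entpd4 overlap another gene's span, and reads of opposite strands could not be told apart. Alternatives were other pseudocounts, filters, scalings, priors, weights and library sets.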

Additional observations from a re-analysis of the deposited data

How the results depend on the processing

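The count of genes called between labelled strNrip1-/- sedentary and labelled WT trained, 559, became 979 with array weights, 345 with a constant variance prior, 38 with the 6 libraries alone and 131 without the 3 slow-fiber-high libraries, an alternative chosen after seeing the data. Leaving out 1 library in turn gave 168 to 573. For labelled strNrip1-/- sedentary against labelled WT sedentary the 447 became 690 with array weights, 143 without the 3 libraries and 163 to 478 without 1 library. For labelled WT trained against labelled WT sedentary the 0 became 11 with array weights, 8 with a filter of 5 FPKM, 4 with quantile normalization, 2 with rescaling by nuclear genes, 1 with the same sum and 0 to 30 without 1 library. Genes held within 1.5-fold, 8355, were 5401 with a filter of 5 FPKM, which tests 6849 genes, and 7227 to 8304 without 1 library. The difference in mitochondrial share ranged from 5.23 to 7.01 points without 1 library. Libraries of equal replicate number share only a number, since their deviations correlated at −0.073, 0.241 and 0.064. With the replicate block 514 genes were called, 445 of them shared, and 4 between labelled WT trained and sedentary. Of the genes named, Rpl10 became 0.080 without the 3 libraries, Notch3 0.064 with array weights and 0.085 without the 3 libraries, and Epas1 −0.015 with the same sum. Over the libraries left out in turn Rps27 ran from −0.40 to 0.029 and Notch3 from −0.36 to 0.16, and none of these 4 was called. The causes were not tested. The remaining values for named genes kept their direction, 602 with the call lost, 25 with a call gained and 1940 on the same side of the threshold. Depth limits genes near 0.5 FPKM, which rest on 16.6 to 24.2 fragments at 2 kb.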
